A study of Mus musculus with 24 samples.

Results

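The genes described here are 34 genes of cholesterol and fatty acid synthesis, most of them targets of the sterol regulatory element-binding proteins (SREBPs), in mouse spinal cord microglia. They were taken by name from a list: 5 regulators of the pathway, 8 enzymes of the mevalonate steps, 12 enzymes of the sterol steps, 1 sterol carrier and 8 enzymes of fatty acid synthesis, elongation and desaturation. All 34 were found among the 39017 gene identifiers of the count table, and 33 were among the 16535 genes with enough counts to be tested. The gene left out of the tests was *Idi1*, which had at most 20 counts in a library.

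Cells make cholesterol from acetyl-CoA by way of mevalonate, squalene and lanosterol, and they make fatty acids from the same precursor by way of malonyl-CoA. SREBPs are transcription factors held in the endoplasmic reticulum by SCAP and the INSIG proteins while sterol is plentiful. When sterol falls they are cut free, enter the nucleus and switch on the synthesis genes, with *Srebf2* weighted to the cholesterol branch and *Srebf1* to the fatty acid branch. In the central nervous system cholesterol is made locally, above all for myelin, and microglia that take up myelin debris handle a large sterol load.

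The study asked how loss of *Kdm6a*, an X-linked gene for a histone H3 lysine demethylase, in microglia bears on the multiple sclerosis model experimental autoimmune encephalomyelitis (EAE). RNA-seq was done on spinal cord microglia of 4 groups with 6 libraries each: female *Kdm6a* conditional knockout (cKO), female wildtype (WT), male cKO and male WT. All libraries are labelled as EAE, so no healthy group is analysed here, and ages are not stated in the labels used here. The design text names *Tmem119*-Cre, which drives recombination in microglia, and RiboTag, which marks ribosomes of recombined cells so that their bound RNA can be recovered, for the mice of both sexes. The cKO is therefore limited to cells that express the *Tmem119* driver. Nothing in the labels ties a library to an animal of its own, so p-values measure only the spread between these samples, which may be technical.

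Total counts ran from 27110133 to 40554736 per library. *Kdm6a* had 1.56 to 3.48 CPM (counts scaled to library size; median 2.56) in female cKO and 2.17 to 6.09 CPM (median 4.46) in female WT libraries, and the groups overlapped. It had 0.648 to 1.73 CPM (median 0.961) in male cKO and 1.97 to 4.03 CPM (median 2.70) in male WT libraries, with no overlap. By edgeR's quasi-likelihood test its log2 change was -0.85 in females (adjusted p = 0.031). The male value was -1.36 (edgeR adjusted p = 0.016). Both rest on counts over the whole gene, which need not lie in the deleted part. There were 4 libraries that stood apart. *Ddx3y*, a Y-linked gene, had 18 counts in female WT replicate 2 and 40 in female WT replicate 3, against 0 to 2 in the other female libraries. *Xist* had 16 counts in male cKO replicate 3, against 0 in the other male libraries, and female WT replicate 5 had the 2.17 CPM of *Kdm6a* given above. Where leaving out these 4 libraries changed a member's call, this is stated.

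Scaled to exon length, which allows levels of different genes to be compared, the genes spanned a wide range. These are levels in whole libraries, which also held markers of other cells. *Mbp*, an oligodendrocyte marker, had a mean of 2187 CPM in female cKO and 2042 CPM in female WT libraries. How much of each level came from cells other than microglia was not tested. *Scd2*, a desaturase that makes monounsaturated fatty acids, was highest in every group, with a mean of 95.3 ± 5.23 CPM per kb in female cKO and 80.9 ± 18.7 CPM per kb in female WT libraries (SD, n = 6 each). The next level held *Fdft1* (39.5 CPM per kb in female cKO and 34.6 CPM per kb in female WT libraries), *Acly* (32.8 CPM per kb in female cKO and 29.6 in female WT libraries), *Ebp* (26.3 in female cKO and 30.8 in female WT libraries) and *Fads1* (19.4 in female cKO and 33.2 in female WT libraries). The lowest counts per kb were those of *Fdps* (0.269 CPM per kb in female cKO and 0.277 CPM per kb in female WT libraries) and *Idi1* (0.0716 in female cKO and 0.0377 in female WT libraries). Both rest on few counts, and the sources used here do not say how reads that match several places in the genome were counted, so the levels and changes of these genes are uncertain.

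**Figure D1:**
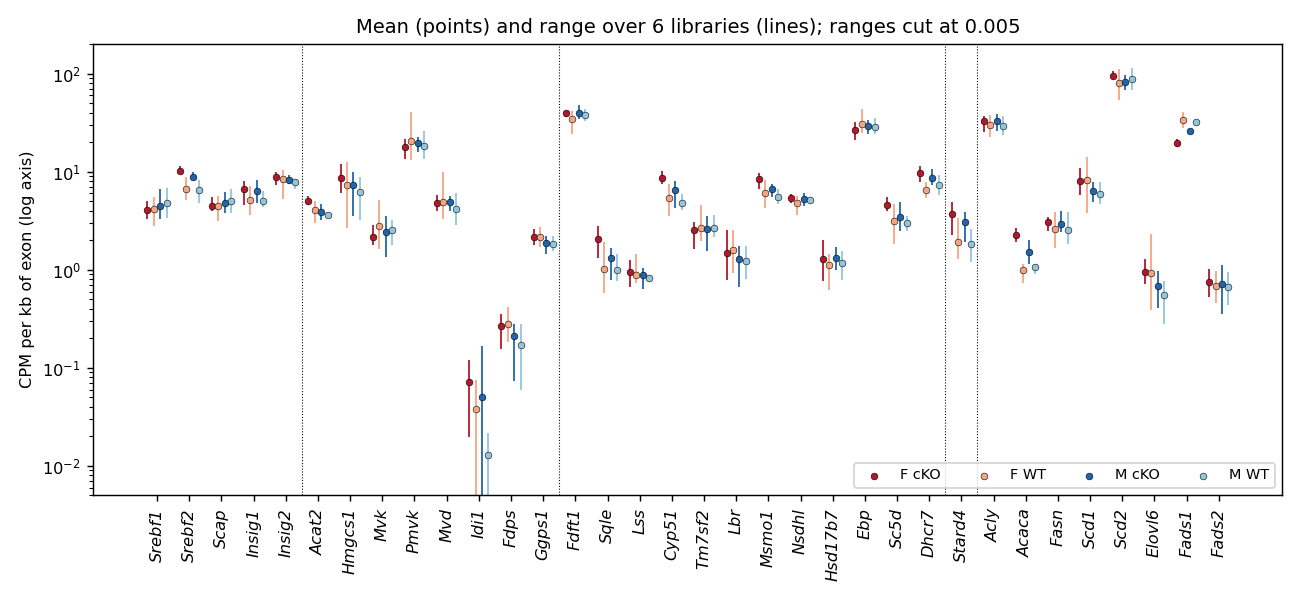
Level of the 34 genes, as CPM per kb of exon on a log axis, in the 4 groups (points, mean of 6 libraries; lines, lowest to highest library); dotted lines part regulators, mevalonate steps, sterol steps, the sterol carrier and fatty acid steps. *Scd2* is highest, at 95.3 CPM per kb in female cKO libraries, and *Idi1* is lowest.

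In females, 7 of the 33 tested genes rose in cKO microglia and 1 fell (edgeR's quasi-likelihood test, adjusted p under 0.05 over all genes tested). The 7 were the regulator *Srebf2*, the sterol enzymes *Sqle*, *Cyp51*, *Msmo1* and *Dhcr7*, the sterol carrier *Stard4* and the fatty acid enzyme *Acaca*, and the gene that fell was the desaturase *Fads1*. Of all genes tested 3.32% rose and 4.41% fell in this comparison (7.74% in all). The median log2 change was 0.17 over the 33 genes and -0.02 over all genes tested, and 23 of the 33 changes (69.7%) were positive against 47.1% over all genes. Without the 4 libraries that stood apart 7 of 34 tested genes rose and 1 fell, *Sc5d* having come in and *Dhcr7* dropped out, and the median change was 0.29. In that fit 869 of 16938 genes were called. The median was 0.10 without female WT replicate 4 and 0.11 without female WT replicate 5.

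By role, 1 of 5 regulators, 0 of 7 tested mevalonate enzymes, 4 of 12 sterol enzymes, the 1 sterol carrier and 1 of 8 fatty acid enzymes rose in females, and 1 of 8 fatty acid enzymes fell. The median log2 change was 0.07 for the regulators, -0.04 for the mevalonate steps, 0.19 for the sterol steps and 0.16 for the fatty acid steps. These medians moved with the libraries included. Without female WT replicate 5 they were 0.10 for the mevalonate steps and 0.08 for the fatty acid steps, and *Acat2* then passed the test (0.40, edgeR adjusted p = 0.043). Without female WT replicate 2 they were 0.11 for the regulators, -0.09 for the mevalonate steps and 0.29 for the sterol steps. Without the 4 libraries that stood apart they were 0.09 for the regulators, 0.25 for the mevalonate steps, 0.41 for the sterol steps and 0.23 for the fatty acid steps. The lists were not tested against each other.

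In males no member passed the test, where 0.187% of all genes did (0.0726% higher and 0.115% lower). At an unadjusted p under 0.05, which 4.86% of all genes met, 5 members were higher and 1 lower in male cKO libraries by edgeR and 6 and 1 by DESeq2, which also called 0 at the adjusted threshold. The median log2 change over the 33 genes was 0.12, against 0.01 over all genes, and 27 of the 33 changes (81.8%) were positive against 52.2% over all genes. The sign was the same in females and males for 25 of 33 genes (75.8%), against 60.5% of all genes. These comparisons share no library, but numbers in the library titles recur in both sexes of a genotype and none joins cKO to WT (correlation within a title number 0.216), so an effect of that number and one of genotype cannot be told apart in this share. Averaged over the sexes, the same 7 genes rose and *Fads1* fell, where 6.54% of all genes were called (2.76% higher and 3.78% lower). With the title number as a random effect in limma, *Acaca*, *Srebf2* and *Fads1* kept this averaged call, where 330 of 16535 genes were called. *Stard4*, *Dhcr7*, *Cyp51*, *Msmo1* and *Sqle* lost it (adjusted p of 0.073 to 0.287).

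**Figure D2:**
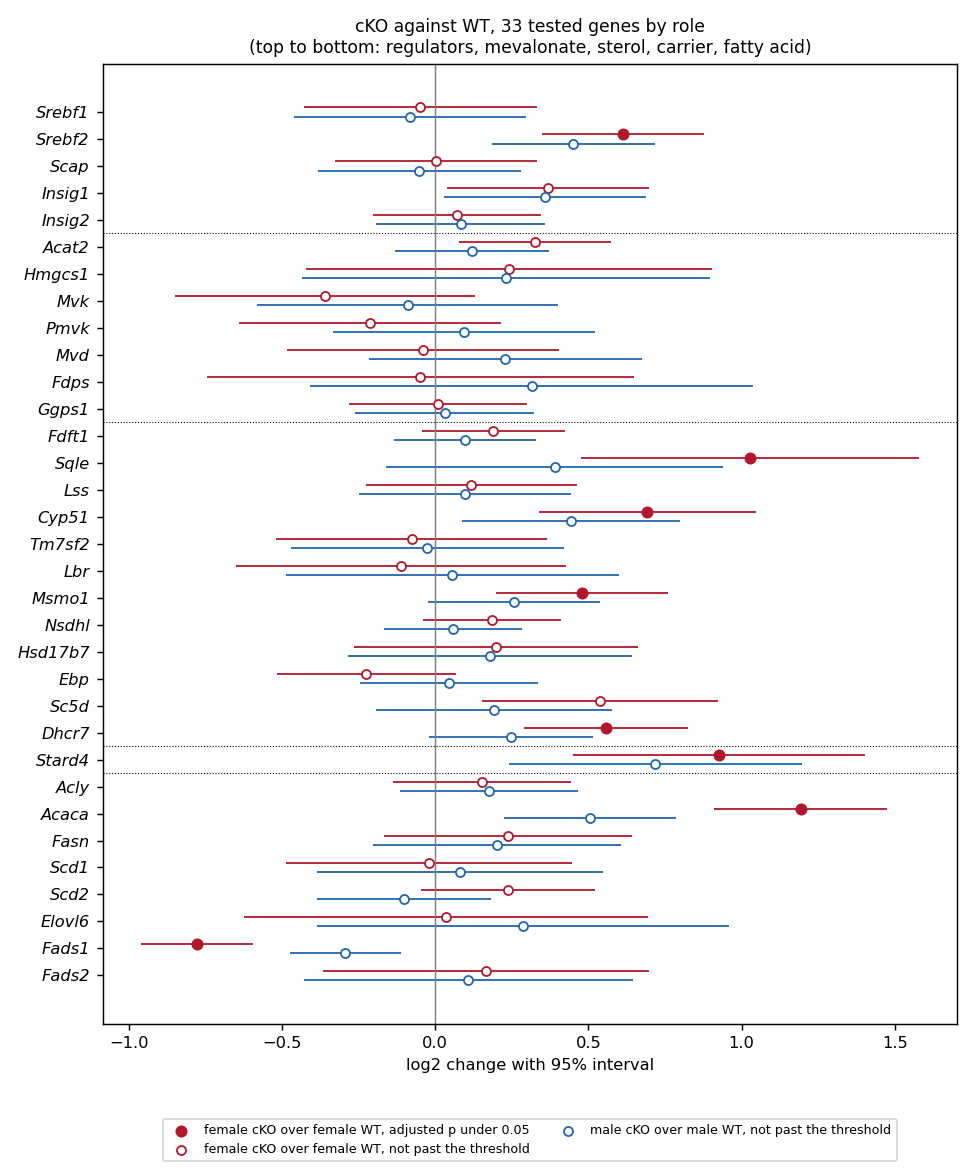
Log2 change (cKO over WT) of the 33 tested genes with its 95% interval, in females (red) and males (blue), ordered by role from regulators at the top to fatty acid enzymes at the bottom; filled points passed edgeR's test at an adjusted p under 0.05. The 8 filled points are all female, with *Acaca* farthest to the right at 1.19 and *Fads1* farthest to the left at -0.78.

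Among the regulators, *Srebf2*, which encodes the SREBP that drives cholesterol synthesis, was the gene that moved. It lies at chr15:82147181-82205379 on the plus strand (GRCm38, the same assembly as mm10). It had 68.2, 72.4 and 81.5 CPM (lowest, median and highest of 6 libraries) in female cKO and 37.0, 47.4 and 64.1 CPM in female WT libraries. In males it had 59.9, 62.0 and 71.0 CPM in cKO and 34.2, 49.5 and 59.2 CPM in WT libraries. In both sexes the lowest cKO library was above the highest WT library, and *Srebf2* was the only member higher without overlap in both. By edgeR's quasi-likelihood test the female log2 change was 0.61 (SE 0.13, adjusted p = 0.0025). The male one was 0.45 (SE 0.13, edgeR adjusted p = 0.28). Exact permutation of the 12 libraries gave an unadjusted p = 0.00216 in each sex, the smallest value that 6 against 6 can give. Groups without overlap always reach this value, so it adds nothing to the lack of overlap. Groups without overlap and with cKO higher made up 2.36% of all genes in females and 0.23% in males.

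The sequence just before the *Srebf2* start is shown because this gene rose and because SREBP-responsive promoters often pair their sites with CCAAT boxes, bound by the factor NF-Y. The 250 bases upstream of the RefSeq start (chr15:82147019-82147268, plus strand, GRCm38.p6) are given 5′ to 3′, with capitals for a CCAAT box, here on the reverse strand as ATTGG.
Srebf2: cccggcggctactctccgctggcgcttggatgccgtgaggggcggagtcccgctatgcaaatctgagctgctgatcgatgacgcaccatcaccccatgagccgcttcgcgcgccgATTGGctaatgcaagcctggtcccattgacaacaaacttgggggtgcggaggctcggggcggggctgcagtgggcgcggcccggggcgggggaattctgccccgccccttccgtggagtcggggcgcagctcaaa
The match began 135 bases before the start, and this window held no exact match to the sterol regulatory element letters TCACNCCAC on either strand. It did hold TCACCCCAT, which differs from them in the last base, and such near matches were not searched for.

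No other regulator passed the test. *Srebf1*, the SREBP gene of the fatty acid branch, had 18.3, 22.3 and 28.0 CPM in female cKO and 15.6, 23.1 and 30.8 CPM in female WT libraries, and 18.5, 22.9 and 37.3 CPM in male cKO and 19.1, 26.3 and 38.4 CPM in male WT libraries. The groups overlapped throughout, with log2 changes of -0.05 (95% interval -0.43 to 0.33) in females and -0.08 (-0.46 to 0.30) in males. *Scap*, the SREBP escort, had 29.4, 32.2 and 41.1 CPM in female cKO and 23.2, 33.1 and 41.8 CPM in female WT libraries, and 28.0, 33.3 and 46.5 CPM in male cKO and 28.3, 34.6 and 49.1 CPM in male WT libraries. Its log2 changes of 0.00 in females and -0.05 in males were within the spread of the libraries.

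*Insig1*, itself an SREBP target and a brake on SREBP release, had 14.0, 21.3 and 24.9 CPM in female cKO and 11.3, 15.9 and 21.9 CPM in female WT libraries. In males it had 14.8, 20.5 and 25.3 CPM in cKO and 13.3, 14.8 and 19.7 CPM in WT libraries. The female log2 change of 0.37 (SE 0.16, edgeR adjusted p = 0.19) was close to the male one of 0.36 (SE 0.16, edgeR adjusted p = 0.91). Averaged over the sexes it was 0.36 and missed the threshold (edgeR adjusted p = 0.053), which it lay close to. The averaged change passed without the 4 libraries that stood apart (0.40, edgeR adjusted p = 0.040), with DESeq2 (adjusted p = 0.031), with a filter of at least 1 CPM in 6 libraries (0.047), with a term for replicates 1 to 3 against 4 to 6 (0.0085) and with a covariate for oligodendrocyte, astrocyte and neuron markers (0.0497). It also passed without any 1 of female cKO replicate 5, male cKO replicates 4 and 6, female WT replicate 2 and male WT replicate 2, and missed the threshold under the other alternatives run. *Insig2*, its relative, had log2 changes of 0.07 in females and 0.08 in males. The exons of *Scap* and *Hmgcs1* overlap opposite-strand gene models over 13.2% and 12.1% of their bases, so part of their counts is uncertain.

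None of the 7 tested mevalonate enzymes passed the test in either sex. *Acat2*, the cytosolic thiolase that opens the route, came nearest, with 11.6, 12.8 and 14.4 CPM in female cKO and 7.66, 10.7 and 12.7 CPM in female WT libraries (log2 change 0.33, edgeR adjusted p = 0.11). *Hmgcs1*, the HMG-CoA synthase, ranged widely, from 27.7 to 54.4 CPM in female cKO and from 12.3 to 58.2 CPM in female WT libraries. In each of the 4 groups replicates 1 to 3 were all above replicates 4 to 6. The values were 41.5 to 54.4 against 27.7 to 32.5 CPM in female cKO libraries. They were 34.9 to 58.2 against 12.3 to 27.4 CPM in female WT libraries. The *Hmgcs1* log2 change was 0.24 (95% interval -0.42 to 0.90) in females and 0.23 in males.

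*Mvk*, *Pmvk* and *Mvd*, which phosphorylate and decarboxylate mevalonate, had log2 changes of -0.36, -0.21 and -0.04 in females and -0.09, 0.09 and 0.23 in males. *Pmvk* and *Mvd* were high in female WT replicate 5, at 69.0 and 18.6 CPM, against 22.7 to 32.2 and 6.18 to 8.18 CPM in the other female WT libraries. *Fdps*, the farnesyl diphosphate synthase, had 19 to 42 counts per library in female cKO and 21 to 66 in female WT libraries, and 26.7% of its exon bases are shared with an overlapping gene model on the same strand. *Ggps1*, which makes the geranylgeranyl diphosphate used to lipidate proteins, had log2 changes of 0.01 in females and 0.03 in males. *Idi1*, the isomerase of the isopentenyl unit, had 2 to 12 counts in female cKO and 0 to 10 counts in female WT libraries.

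Among 27 members with a RefSeq promoter entry, only *Hmgcs1* held an exact match to the sterol regulatory element letters, so its promoter is shown. Stretches that differ from these letters by a base were not counted, so no contrast with other members is drawn. *Hmgcs1* itself did not pass the test. The 250 bases before its start (chr13:119690101-119690350, plus strand, GRCm38.p6) carry that element and 3 CCAAT boxes in capitals.
Hmgcs1: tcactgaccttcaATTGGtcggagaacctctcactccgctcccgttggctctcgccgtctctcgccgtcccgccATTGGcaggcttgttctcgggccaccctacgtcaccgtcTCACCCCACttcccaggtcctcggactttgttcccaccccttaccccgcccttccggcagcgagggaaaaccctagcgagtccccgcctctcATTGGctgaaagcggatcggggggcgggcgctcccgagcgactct
The element, TCACCCCAC, began 137 bases before the start.

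The sterol steps held 4 of the 7 genes that rose in females. *Sqle*, the squalene epoxidase that is a rate-limiting step of the later pathway, had 7.30, 11.5 and 15.6 CPM in female cKO and 3.22, 4.53 and 10.7 CPM in female WT libraries. The groups overlapped, with female WT replicates 2 and 3 above the lowest cKO library. The log2 change was 1.03 (SE 0.27, edgeR adjusted p = 0.015, exact permutation p = 0.0152), a 2.04-fold difference, and 1.48 without the 4 libraries that stood apart. In males *Sqle* had 4.36, 7.79 and 9.35 CPM in cKO and 4.24, 5.15 and 8.03 CPM in WT libraries, which overlapped widely (log2 change 0.39, SE 0.27).

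*Cyp51* (chr5:4081145-4104746, minus strand), the enzyme that demethylates lanosterol, had 32.7, 37.8 and 45.2 CPM in female cKO and 15.7, 22.9 and 33.1 CPM in female WT libraries. The overlap was slight, since only the highest WT library reached the lowest cKO library. The log2 change was 0.69 (SE 0.17, edgeR adjusted p = 0.010; exact permutation p = 0.00433). In males it had 18.9, 30.8 and 35.8 CPM in cKO and 18.0, 20.0 and 26.0 CPM in WT libraries (log2 change 0.44, SE 0.17, edgeR adjusted p = 0.74). *Cyp51* shares 3.76% of its exon bases with *Akap9* on the opposite strand, which had 8.40 CPM in female cKO and 8.09 CPM in female WT libraries.

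*Msmo1* (chr8:64718139-64733792, minus strand), the methylsterol monooxygenase that follows, had 41.3, 51.9 and 58.9 CPM in female cKO and 26.4, 37.0 and 50.3 CPM in female WT libraries, with overlap. The log2 change was 0.48 (SE 0.14, edgeR adjusted p = 0.028, exact permutation p = 0.0152). The call was close to the threshold: it was lost without any 1 of female cKO replicates 1, 3 and 4 and female WT replicates 4, 5 and 6, with adjusted p of 0.050 to 0.080. In males *Msmo1* had 34.1, 42.0 and 46.2 CPM in cKO and 28.5, 32.4 and 40.8 CPM in WT libraries (log2 change 0.26, SE 0.14).

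*Dhcr7* (chr7:143823145-143848410, plus strand), the reductase of the last step to cholesterol, had 45.2, 54.9 and 65.8 CPM in female cKO and 31.5, 39.0 and 45.2 CPM in female WT libraries. The groups barely touched, and the log2 change was 0.56 (SE 0.13, edgeR adjusted p = 0.0063). Without the 4 libraries that stood apart it was 0.45 and no longer passed (adjusted p = 0.10). In males *Dhcr7* had 42.9, 47.4 and 61.4 CPM in cKO and 33.3, 40.1 and 54.3 CPM in WT libraries (log2 change 0.25, SE 0.13).

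The promoters of *Cyp51* and *Msmo1* are shown because both genes rose and stand near each other in the route. The windows are chr5:4104698-4104947 and chr8:64733579-64733828, both read on the minus strand (GRCm38.p6), with CCAAT boxes in capitals.
Cyp51: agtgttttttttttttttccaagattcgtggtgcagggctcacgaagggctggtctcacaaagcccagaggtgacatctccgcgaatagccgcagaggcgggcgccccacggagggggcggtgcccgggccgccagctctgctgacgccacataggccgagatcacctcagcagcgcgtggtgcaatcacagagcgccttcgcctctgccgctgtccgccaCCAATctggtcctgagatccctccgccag
Msmo1: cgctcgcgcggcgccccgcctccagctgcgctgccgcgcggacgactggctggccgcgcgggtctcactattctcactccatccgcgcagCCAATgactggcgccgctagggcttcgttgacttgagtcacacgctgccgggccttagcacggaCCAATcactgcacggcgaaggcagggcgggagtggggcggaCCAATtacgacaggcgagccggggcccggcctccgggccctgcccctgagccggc
*Cyp51* held 1 CCAAT box, beginning 29 bases before the start, and *Msmo1* held 3, beginning 160, 96 and 55 bases before it. Both RefSeq starts lie inside the annotated gene spans given above, and so do all of these boxes. The boxes are therefore upstream of the RefSeq starts but not of the annotated genes.

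The other 8 sterol enzymes did not pass the test in females. *Sc5d*, a sterol desaturase, came nearest, with 19.3, 20.4 and 27.1 CPM in female cKO and 8.94, 16.3 and 22.9 CPM in female WT libraries (log2 change 0.54, SE 0.19, edgeR adjusted p = 0.083). It passed without the 4 libraries that stood apart. *Fdft1*, which makes squalene, had a log2 change of 0.19, *Lss*, which closes squalene epoxide into lanosterol, 0.12, *Nsdhl*, a sterol dehydrogenase, 0.19 and *Hsd17b7*, a sterol ketone reductase, 0.20. The sterol reductases *Tm7sf2* and *Lbr* had -0.08 and -0.11 and the sterol isomerase *Ebp* had -0.22. Part of the *Tm7sf2* counts is uncertain, since 12.1% of its exon bases are shared with *Vps51* on the same strand. *Vps51* had 36.7 CPM in female cKO and 37.2 CPM in female WT libraries. The *Fdft1* value is uncertain, since 18.3% of its exon bases are shared with the opposite strand of *Ctsb*, a far more abundant gene (10488 CPM in female cKO and 11928 CPM in female WT libraries), and no source used here gives the strand setting of the counting.

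*Stard4*, a carrier that moves cholesterol between membranes and is itself sterol-regulated, had 12.6, 19.8 and 27.6 CPM in female cKO and 7.14, 9.26 and 18.8 CPM in female WT libraries. The overlap came from female WT replicate 2, at 18.8 CPM, with the other female WT libraries at 11.5 CPM or less. The log2 change was 0.93 (SE 0.23, edgeR adjusted p = 0.011), a 1.90-fold difference, and 1.26 without the 4 libraries that stood apart. In males it had 10.8, 18.7 and 21.6 CPM in cKO and 6.67, 9.79 and 14.5 CPM in WT libraries, and its log2 change of 0.72 (SE 0.23, edgeR adjusted p = 0.43) was the largest of the members in that sex.

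In the fatty acid branch *Acaca* and *Fads1* moved in opposite directions. *Acaca* (chr11:84129672-84401651, plus strand), which encodes the acetyl-CoA carboxylase that makes malonyl-CoA and commits acetyl-CoA to fatty acid synthesis, had 33.0, 37.9 and 45.7 CPM in female cKO and 12.4, 17.2 and 19.6 CPM in female WT libraries. Every female cKO library was above every female WT library. The log2 change was 1.19 (SE 0.14, edgeR adjusted p = 1.3e-06), a 2.29-fold difference and the largest of the members. In males *Acaca* had 19.5, 25.1 and 34.4 CPM in cKO and 15.4, 19.0 and 19.7 CPM in WT libraries, where only the lowest cKO library lay within the WT range (log2 change 0.51, SE 0.14, edgeR adjusted p = 0.19; exact permutation p = 0.00866).

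*Fads1* (chr19:10182888-10196877, plus strand), a desaturase of long-chain polyunsaturated fatty acids, fell. It had 86.0, 91.7 and 103 CPM in female cKO and 133, 158 and 196 CPM in female WT libraries, with no overlap. The log2 change was -0.78 (SE 0.09, edgeR adjusted p = 1.1e-06), which left female cKO libraries at 0.584 times the WT level. In males *Fads1* had 116, 129 and 132 CPM in cKO and 146, 154 and 166 CPM in WT libraries, again with no overlap (log2 change -0.29, SE 0.09, edgeR adjusted p = 0.31; exact permutation p = 0.00216). Groups without overlap and with cKO lower made up 2.1% of all genes in females and 0.345% in males.

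*Fads2*, whose gene lies beside *Fads1* and whose enzyme acts in the same route, was expressed at a far lower level, 0.758 CPM per kb in female cKO and 0.676 CPM per kb in female WT libraries, and did not pass the test (log2 change 0.17, 95% interval -0.37 to 0.70). *Acly*, which supplies cytosolic acetyl-CoA, had log2 changes of 0.15 in females and 0.18 in males. *Fasn*, the fatty acid synthase, had 0.24 in females and 0.20 in males. The stearoyl-CoA desaturases *Scd1* and *Scd2* had -0.02 and 0.24 in females and 0.08 and -0.10 in males, and the elongase *Elovl6* had 0.03 in females and 0.29 in males. *Acaca* was therefore the only enzyme of the route from citrate to palmitate to pass the test, although the difference between *Acaca* and its neighbours was not itself tested.

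**Figure D3:**
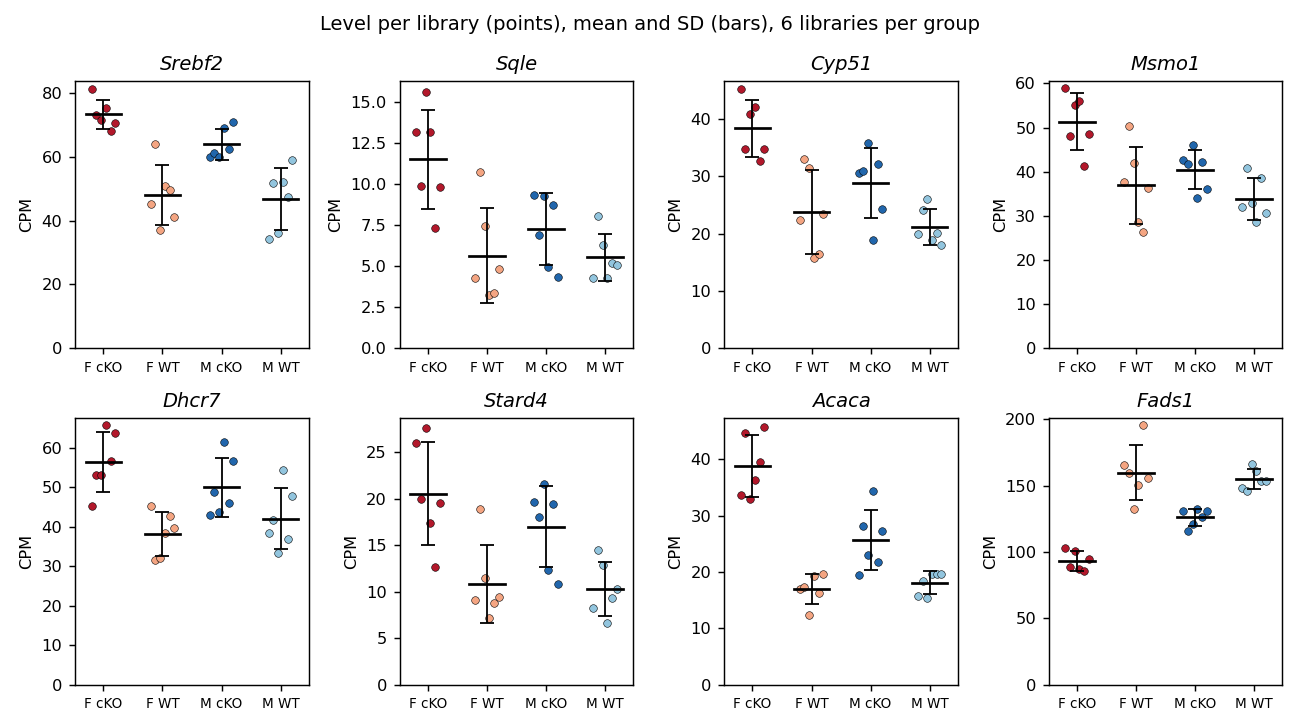
CPM of the 8 genes past the test in females, 1 point per library with the mean and SD as bars (6 libraries per group), in female cKO, female WT, male cKO and male WT libraries. *Srebf2* and *Acaca* in female cKO libraries lie wholly above female WT libraries, *Fads1* lies wholly below, and the other 5 panels overlap.

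The *Acaca* window is shown for a raised gene, but it may not be a promoter. The table gives a single start for it, well inside the annotated gene, which has several starts. The 250 bases (chr11:84195188-84195437, plus strand, GRCm38.p6) may therefore be intron sequence. A lack of matches there says nothing about the promoter in use.
Acaca: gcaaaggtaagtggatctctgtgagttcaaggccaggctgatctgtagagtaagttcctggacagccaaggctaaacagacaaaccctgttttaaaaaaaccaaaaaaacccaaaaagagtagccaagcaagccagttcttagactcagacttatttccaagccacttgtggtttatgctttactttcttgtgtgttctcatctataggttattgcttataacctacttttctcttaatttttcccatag
The window held none of the 3 motifs searched.

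Over the promoters as a whole, 27 of the 34 genes matched an entry in the RefSeq table, among them *Acaca*, whose window may not be a promoter. The windows of *Srebf2*, *Cyp51* and *Msmo1* reach into the annotated genes. An exact match to the sterol regulatory element TCACNCCAC was in the upstream 250 bases, on either strand, of 1 of the 27. It was in 1.04% of 32536 promoters. The CCAAT box was in 21 of the 27 and in 33.8% of all promoters. The E-box CACGTG, which SREBPs also bind, was in 5 of the 27 (*Dhcr7*, *Hsd17b7*, *Insig1*, *Sc5d* and *Scap*) and in 6.04% of all promoters. *Dhcr7* and some others have several entries and count once if any matched. A match is a run of letters and not a measured binding site, and the missing entries include 3 of the 8 genes past the test (*Sqle*, *Stard4* and *Fads1*).

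The 7 raised genes were then followed library by library. Since the female comparison chose them, their female values are a description. All 7 were above the female WT mean in each of the 6 female cKO libraries, against 2 to 6 of the 7 in single female WT libraries. In male cKO libraries 7 of the 7 were above the male WT mean in 4 libraries, 6 in 1 and 5 in 1, while single male WT libraries ranged from 0 to 7. Female WT replicate 2, with 6 above the mean of its group, and male WT replicate 2, with all 7, were the high WT libraries.

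**Figure D4:**
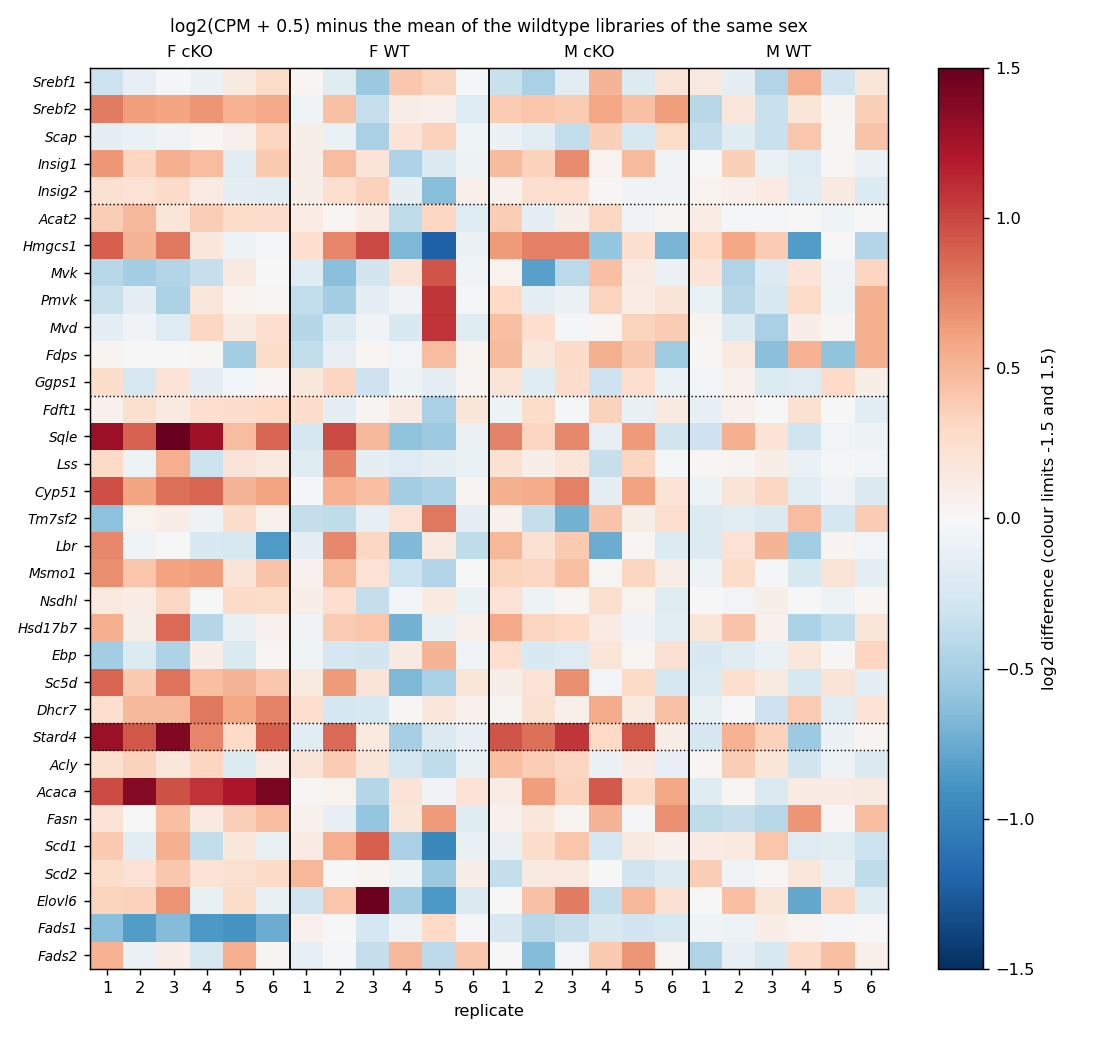
Each library's log2(CPM + 0.5) minus the mean of WT libraries of the same sex for the 33 tested genes (rows, by role) in female cKO, female WT, male cKO and male WT libraries (columns, replicates 1 to 6); red is higher, blue lower and colours stop at -1.5 and 1.5. The rows of *Srebf2*, *Stard4* and *Acaca* are red across female cKO libraries, *Fads1* is blue, and *Pmvk* and *Mvd* are darkest in female WT replicate 5.

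The 8 genes called had passed in females and not in males, a choice that favours a larger change in females, and each had one. The difference between the sexes passed the test for none of the 33 genes, where 0.411% of all genes passed (edgeR's quasi-likelihood test; 2 members were at an unadjusted p under 0.05, as were 7.11% of all genes, and DESeq2 called 1, *Fads1*). The female effect minus the male effect was 0.69 for *Acaca* (SE 0.19, edgeR adjusted p = 0.16) and -0.48 for *Fads1* (SE 0.12, edgeR adjusted p = 0.10). With a term for replicates 1 to 3 against 4 to 6 both passed, where 111 of 16535 genes did. For *Srebf2* the difference was 0.16 (95% interval -0.21 to 0.54).

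Between the sexes of the same genotype, *Acaca* was higher and *Fads1* lower in female cKO than in male cKO libraries (log2 difference 0.60 and -0.44, edgeR adjusted p = 0.015 and 0.0053), where 1.98% of all genes passed (0.883% higher and 1.1% lower). This comparison was chosen after the values had been seen. No member passed the test between female WT and male WT libraries, by edgeR or by DESeq2, where 0.0363% of all genes passed (1 member, *Elovl6*, was at an unadjusted p under 0.05, as were 3.14% of all genes). The log2 difference there was -0.09 for *Acaca* and 0.05 for *Fads1*.

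Of 16 further genes of the SREBP pathway 1 rose in females and none in males, with median log2 changes of 0.13 and 0.06. Of all genes tested 3.32% rose and 4.41% fell in females, and 0.0726% rose in males. Of 12 genes of sterol efflux, storage and breakdown 2 rose in females and none fell: *Ch25h*, which hydroxylates cholesterol to a sterol that restrains SREBP release, and *Lipa*, the lysosomal cholesteryl ester hydrolase. *Ch25h* had 110 to 155 CPM (median 131) in female cKO and 32.1 to 140 CPM (median 56.3) in female WT libraries (log2 change 0.96, edgeR adjusted p = 0.014). *Lipa* had 390 to 561 CPM (median 516) in female cKO and 167 to 413 CPM (median 355) in female WT libraries (log2 change 0.56, edgeR adjusted p = 0.048). Averaged over the sexes *Ch25h* rose (0.72) and *Mylip*, a ubiquitin ligase gene induced by liver X receptors, fell (-0.44, edgeR adjusted p = 0.023), while *Lipa* did not pass. In this average 2.76% of all genes rose and 3.78% fell.

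Markers of other cells were measured beside these results, since oligodendrocytes also make cholesterol. None of the 8 oligodendrocyte, 7 astrocyte and 6 neuron markers passed the test in either sex. Of all genes 7.74% passed in females and 0.187% in males. The summed oligodendrocyte markers were at 2569.6 to 3664 CPM in female cKO and 2443 to 3311 CPM in female WT libraries, and at 2299.8 to 3227 CPM in male cKO and 2634 to 2994 CPM in male WT libraries, and *Mbp* made up most of each sum. With a covariate for these 3 lists 8 members rose in females (the 7 above and *Sc5d*) and *Fads1* fell, where 1405 of 16535 genes were called. The summed astrocyte markers were at 411 to 641 CPM in female cKO and 478 to 726 CPM in female WT libraries, and the summed neuron markers at 140 to 246 CPM in female cKO and 127 to 223 CPM in female WT libraries. Of 9 infiltrating leukocyte markers *Ly6c2* fell in females (median 0 CPM in female cKO and 0.422 CPM in female WT libraries), *Trbc2* and *Chil3* were at 0 in all female cKO libraries, and the summed level was 3.25 to 6.28 CPM in female cKO and 2.32 to 14.0 CPM in female WT libraries (median 5.22 CPM in female cKO and 3.78 CPM in female WT libraries). *S100a8*, a neutrophil gene of this list, had a median of 3.49 CPM in female cKO and 0.766 CPM in female WT libraries and did not pass the test (log2 change 1.24, edgeR adjusted p = 0.12). Only 6 of the 9 markers were tested, and 1 of these 6 changes was positive in each sex. The median log2 change of the 6 was -0.91 in females and -0.83 in males. Averaged over the sexes 2 were called lower and 0 higher, where 3.78% of all genes fell and 2.76% rose. With a covariate for the infiltrating leukocyte markers *Acat2* was called in females and *Msmo1* was not (edgeR adjusted p = 0.064). Averaged over the sexes *Sqle* (edgeR adjusted p = 0.081) and *Msmo1* (0.095) were then not called.

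Defining markers of microglia, 8 genes, were all present and summed to 6495 to 9133 CPM in female cKO and 3916 to 8625 CPM in female WT libraries, and to 5911 to 7845 CPM in male cKO and 4757 to 6932 CPM in male WT libraries. In females, where 3.32% of all genes rose and 4.41% fell, *Siglech* rose (log2 change 1.09), and *Tmem119* (-0.77) and *Fcrls* (-1.17) fell. Their part in the changes of the synthesis genes was not tested. In RNA pooled from many cells, fewer cells of a type and less RNA per cell cannot be told apart. Where the RNA was recovered by RiboTag, a change in RNA level and a change in ribosome binding cannot be told apart either.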

How the data were processed

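The authors deposited 1 table of whole-number counts per gene with 1 column per library, without normalization. Build mm10 and the tools Trimmomatic, FastQC and bcl2fastq (2.17) are named in the labels, per the submitters' processing notes. Aligner, counting tool and strand setting are not stated there. Of 39017 identifiers, 37607 (96.4%) matched the GENCODE M21 annotation. Of counts from 1 to 10, 71.8% were even, against 51.7% from 1000 to 10000, so counting error may be larger than the counts imply.

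Libraries were grouped by the genotype and sex labels, and replicates were numbered 1 to 6 in accession order, which pairs nothing. Replicates 1 to 3 and 4 to 6 nonetheless differed as sets. *Ddx3y* had 449 to 831 counts in male replicates 1 to 3 and 95 to 239 in male replicates 4 to 6. With a term for these sets 1842 genes were called in females, against 1279 without it. What set them apart was not tested. No pair of replicates agreed within sampling noise (mean chi-square per gene between 15.3 and 395). CPM used TMM factors (0.873 to 1.17). Genes kept by filterByExpr were tested with edgeR 4.0.16 in R 4.3.3 (quasi-likelihood), with 4 groups in 1 fit and Benjamini-Hochberg adjustment over all genes tested; adjusted p under 0.05 was called. Single genes were also compared by 2-sided exact permutation on log2(CPM + 0.5), and these p-values were not adjusted for the number of genes. The procedure was tested on simulated data. Alternatives were RLE factors, other filters, DESeq2 1.42.0, limma 3.58.1 with the title number, marker covariates, replicate sets and libraries left out.

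The genes, lists and alternatives were chosen with earlier results of these data known. All 34 genes are named; full values go to genes called, and to *Srebf1*, *Srebf2*, *Scap* and *Insig1*. Of other lists called genes are named, though not every such gene is reported here. Promoters are RefSeq sequences of GRCm38.p6, searched over the upstream 250 bases on both strands.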

Additional observations from a re-analysis of the deposited data

Results flagged for a closer look

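In 7 of 132 combinations of gene and group, 1 library lay far from the other 5, a gap that chance gives in about 1 in 20 groups. All 7 were the highest library of a WT group. In female WT replicate 5 *Pmvk* was at 69.0 CPM, against 22.7 to 32.2 CPM in the others of its group, and *Mvd* was at 18.6 CPM, against 6.18 to 8.18 CPM. In female WT replicate 2 *Lss* was at 15.7 CPM, against 7.96 to 8.54 CPM, and *Stard4* was at 18.8 CPM, against 7.14 to 11.5 CPM. *Elovl6* was at 14.8 CPM in female WT replicate 3, against 2.51 to 6.85 CPM. In males *Insig1* was at 19.7 CPM in WT replicate 2, against 13.3 to 15.5 CPM, and *Acat2* was at 9.88 CPM in WT replicate 1, against 8.67 to 9.10 CPM.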

How the results depend on the processing

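No paired analysis was possible because the replicate numbers follow accession order and the numbers in the titles do not join the groups of a sex into pairs. Of the counts of calls recomputed, 226 stayed within 1.5 times of the value given, 6 were larger and 15 smaller, and 0 members were called in males under any alternative. The 226 include counts that were 0 and stayed 0. Most alternatives left out only 1 library, so the 226 say little about how stable the calls are. *Acaca* and *Fads1* kept their calls in females under every alternative. In females 1 member rose within replicates 1 to 3 alone (*Acaca*), where 458 of all genes were called. *Srebf2*, *Sqle*, *Cyp51*, *Msmo1*, *Dhcr7* and *Stard4* lost their female calls there (edgeR adjusted p of 0.072 to 0.283). Within replicates 4 to 6 alone 6 members rose, where 658 genes were called, and *Dhcr7* was not among them (edgeR adjusted p = 0.051). With the title number as a random effect 6 members rose in females, where 803 genes were called. With the title number 3 members were called averaged over the sexes, where 330 of 16535 genes were called. *Msmo1* also lost its female call when only the groups compared were fitted (adjusted p = 0.092 by edgeR), with the title number (0.058 by limma) and with an infiltrating leukocyte covariate (0.064 by edgeR). The difference between the sexes called 2 members with the term for replicate sets, 1 with DESeq2, and 0 to 1 with single libraries left out (1 without female WT replicate 3).

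All genes called in males numbered 48 without the 4 libraries that stood apart, 51 with the oligodendrocyte, astrocyte and neuron covariate, 88 with DESeq2, 0 within replicates 1 to 3 and 0 within replicates 4 to 6, 2 with the title number, and 15 to 30 with single libraries left out. The causes were not tested. Fewer libraries were in the fits of replicate sets.

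*Scap* and *Srebf1*, which never passed the test, changed sign near 0. The *Scap* log2 change in females was -0.000478 with RLE factors, -0.0597 without the 4 libraries, -0.0245 within replicates 4 to 6, -0.00514 with the infiltrating covariate, -0.000363 with DESeq2, and -0.0824 to 0.0799 with single libraries left out. In males it was 0.0108 without the 4 libraries, 0.0869 within replicates 1 to 3, 0.00519 with the title number, and -0.137 to 0.0435 with single libraries left out. Averaged it was 0.0674 within replicates 1 to 3, 0.0385 with the oligodendrocyte, astrocyte and neuron covariate, 0.0133 with the title number, and -0.0680 to 0.0233 with single libraries left out. *Srebf1* in females was 0.0710 within replicates 1 to 3, 0.0416 with that covariate, and -0.145 to 0.0414 with single libraries left out. In males it was -0.222 to 0.0551 with single libraries left out. Averaged it was 0.0117 with that covariate, and -0.136 to 0.00209 with single libraries left out.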
